A study of Mus musculus with 4 samples.

Results

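The regions described here are binding sites of Gata1 in mouse bone marrow that lay far from any called site of Ldb1 or Tal1. They were picked from the authors' list of Gata1 sites on chromosomes 1 to 19 as those whose centre had no Ldb1 or Tal1 site centre within 1000 bp. Of 5620 Gata1 sites on these chromosomes, 2096 met the rule (37.3%, exact binomial 95% interval 36.0 to 38.6), and they are called far sites below. The other 3524, with an Ldb1 or Tal1 site within that distance, are called partnered sites. A further 71 of the 5691 Gata1 sites, all on chromosome X, were outside the rule.

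Gata1 is a zinc finger transcription factor that binds GATA motifs and is needed for the formation of red cells, platelets, mast cells and eosinophils. In erythroid cells much of it works in a complex with the E-box factor Tal1, joined by the bridging proteins Lmo2 and Ldb1, neither of which binds DNA itself. Gata1 also has partners outside that complex, among them Fog1, and it acts as a repressor as well as an activator. The labels give no genotype, strain, sex or age. Total bone marrow holds many cell types beside red cell precursors, so few cells with a site and a weak site in many cells cannot be told apart.

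There were 4 libraries, 1 per antibody, made by chromatin immunoprecipitation followed by sequencing (ChIP-seq) of total, freshly isolated marrow, for a study of Ldb1 complexes in erythroid gene activation. The antibodies were directed at Gata1 (Abcam ab11852), Ldb1 (Santa Cruz sc-11198) and Scl/Tal1 (Santa Cruz sc-12984; Tal1 below), and a control IgG gave the background. The libraries held 5767555 to 7873298 aligned tags, and 63.2% to 89.0% of these had a distinct position and strand. Control tags were 36 bases long and the others 25 bases; the part of tag length in any value below was not tested. Each antibody had a single library, so nothing could be checked against replicates, no difference between libraries was tested, and the 95% intervals cover counting error only. Sites are given by their position on assembly mm8; the sequence and the genes at these positions were not used here.

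The far sites were mostly weak Gata1 sites, as judged by the number of tags the authors' site caller assigned to each. Their median was 13 caller tags (quartiles 12 and 16, range 11 to 70), against 19 (14 and 29, up to 142) at partnered sites. The caller's minimum for Gata1 was 11, and 492 far sites sat at it. Both groups had a median width of 60 bp. Far sites made up 61.4% (58.8 to 64.0) of the Gata1 sites with 11 to 12 caller tags, 49.5% (46.7 to 52.3) of those with 13 to 15, 33.3% (30.5 to 36.1) of those with 16 to 20, 17.7% (15.3 to 20.4) of those with 21 to 30, and 6.54% (5.002 to 8.37) of the 887 with over 30. Thus 58 far sites had over 30 caller tags and 11 had over 50, where 259 partnered sites did.

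The Gata1 library held a median of 21 tags within 250 bp of a far site (quartiles 17 and 26, range 11 to 127). Summed over the 2096 sites this was 8.10 times (8.004 to 8.19) the density of the same library in flanks 2 to 5 kb away on both sides, called its rise below. The mean level was 2.94 tags per 1000000 tags of the library (RPM), or 7.46 times that of IgG (7.26 to 7.66). These Gata1 values chose the sites and are given as a description. At 1960 far sites (93.5%) Gata1 was raised, meaning that window tags plus 1 were at least 3 times the tags expected from the flanks plus 1. Over all Gata1 sites on chromosomes 1 to 19 the share was 94.7%. Of the 136 far sites that were not raised, 122 (89.7%, 83.3 to 94.3) had another called site, of any of the 3 proteins, within 5 kb, against 20.2% (18.4 to 22.0) of the raised ones. The flanks at 2 to 5 kb can hold the tags of such a neighbour, which lowers this measure. The contrast is thus not independent of the definition, and its source was not tested.

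Ldb1 and Tal1 tags also lay at the far sites, although no site of either was called near them. Ldb1 had a median of 7 tags within 250 bp (quartiles 5 and 11, range 0 to 27) and Tal1 a median of 7 (quartiles 4 and 11, range 0 to 30). At partnered sites the medians were 33 and 34 and the lower quartiles 18 for both, above the upper quartiles of the far sites, although the full ranges overlapped. Ldb1 stood at 3.46 times its own flanks (3.402 to 3.52) and Tal1 3.68 times (3.62 to 3.74), where partnered sites had 18.1 and 22.2 times. The rule removed sites with a partner call, so the lower level at far sites is a product of the choice. IgG itself stood at 1.68 times (1.63 to 1.72) at far sites, against 1.39 times (1.36 to 1.42) at partnered ones. Set against IgG, Ldb1 was 3.17 times higher at far sites (3.08 to 3.27) and Tal1 3.498 times (3.397 to 3.603). In the flanks the level per window was already 0.361 RPM for Ldb1, 0.375 for Tal1 and 0.363 for Gata1, against 0.235 RPM for IgG. These ratios to IgG, and that of Gata1 above, thus hold a difference that was also present away from the sites. The part of the IgG rise in the Ldb1 and Tal1 levels was not tested.

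**Figure D1:**
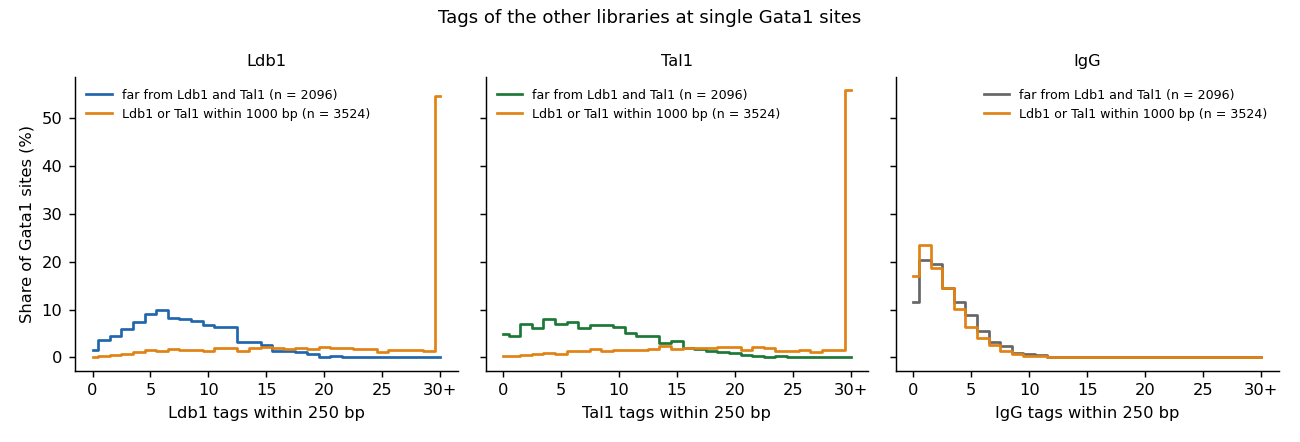
Share of Gata1 sites (vertical axis, %) by the number of Ldb1, Tal1 or IgG tags within 250 bp (horizontal axis; the last step pools 30 or more), for 2096 far and 3524 partnered sites. Far sites gather around a median of 7 Ldb1 and 7 Tal1 tags, most partnered sites reach 30 or more, and the IgG curves of both groups lie close together with a median of 2.

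No tag of Ldb1 was found at 31 far sites (1.48%), none of Tal1 at 103 (4.91%) and none of IgG at 244 (11.6%). At partnered sites these counts were 2 (0.0568%), 10 (0.284%) and 598 (17.0%). For Ldb1 and Tal1 the rule favours more such sites among the far ones. By the 3-fold measure against its own flanks, Ldb1 was raised at 994 far sites (47.4%, 45.3 to 49.6), where 73.4% of all Gata1 sites on these chromosomes passed. Tal1 was raised at 1100 (52.5%, 50.3 to 54.6), where 76.7% of all Gata1 sites passed. Both shares lay under their background, in the direction that choosing sites without a partner call favours. IgG was raised at 175 far sites (8.35%, 7.20 to 9.62), where 6.33% of all passed. Ldb1 and Tal1 were both raised at 660 far sites (31.5%), Ldb1 alone at 334 (15.9%), Tal1 alone at 440 (20.99%) and neither at 662 (31.6%). At partnered sites, both were raised at 84.5%, Ldb1 alone at 4.37%, Tal1 alone at 6.70% and neither at 4.48%. Such joint shares were not made over all Gata1 sites. The rule favours fewer sites with both, and more with neither, among the far ones.

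A site without a call is not a site without tags. The caller, set to keep 1 tag per position per the file headers, asked for at least 9 tags for an Ldb1 site and 8 for a Tal1 site. Within 250 bp, 377 far sites (18.0%, 16.4 to 19.7) held 9 or more distinct Ldb1 tags and 444 (21.2%, 19.5 to 23.0) held 8 or more distinct Tal1 tags. Over all Gata1 sites these shares were 60.7% and 62.5%. Either minimum was reached at 686 far sites (32.7%) and both at 135 (6.44%). These joint counts were not made over all Gata1 sites, so they have no background share to be read against. The caller counts tags in its own windows and by strand, so the numbers are not the same measure. For comparison, Ldb1 sites called at exactly 9 tags held a median of 11 distinct Ldb1 tags within 250 bp, and Tal1 sites called at exactly 8 held a median of 11. The far sites had medians of 6 and 5, with the Gata1 library at a median of 18 distinct tags.

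The Ldb1 and Tal1 tags at far sites pointed to the centre more often than away from it. In ChIP-seq, tags on the plus strand gather before a bound point and those on the minus strand after it, so that tags point towards it. Among the Gata1 tags within 250 bp of far sites 73.6% pointed to the centre (73.2 to 74.0), a property the caller itself used. The share was 61.0% for Ldb1 (60.3 to 61.8) and 60.1% for Tal1 (59.3 to 60.8), where no direction would give equal numbers both ways. At partnered sites the shares for Ldb1 and Tal1 were 76.0% and 72.7%. IgG tags at far sites pointed away more often than towards the centre, with 43.9% towards it (42.7 to 45.2). The caller set Gata1 tags against this IgG library, so the IgG pattern at its sites is not independent of the choice. The median start of plus and minus tags lay 121 bp apart for Gata1, 83 bp for Ldb1 and 73.5 bp for Tal1.

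With distance from the centre, the density of all 3 antibodies was lower in each ring given here. Gata1 stood at 12.6 times its flanks within 50 bp, 4.79 times at 150 to 250 bp and 1.78 times at 500 to 1000 bp. Ldb1 stood at 4.73, 2.58 and 1.29 times in the same rings, and Tal1 at 4.86, 2.78 and 1.25 times. IgG was nearly level near the centre, at 1.49 times within 50 bp, 1.77 times at 150 to 250 bp and 1.74 times at 250 to 500 bp, and reached 1.43 times at 500 to 1000 bp. The 3 antibodies thus had a peak at the site where IgG had a broad, low rise around it.

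Far sites with much control signal were looked at separately. At 470 of the 2096 (22.4%, 20.65 to 24.3) the IgG library had 5 or more tags within 250 bp, where 18.4% of all Gata1 sites did and 15.98% (14.8 to 17.2) of partnered ones. With 1 tag per position and strand the share at far sites was 11.2%. The other 1626 far sites had a median of 20 Gata1 tags (quartiles 17 and 24, range 11 to 101), 7 of Ldb1, 7 of Tal1 and 2 of IgG. The 470 had medians of 24 (20 and 32, up to 127), 8, 9 and 6. In the 1626, the IgG rise was 1.11 times (1.07 to 1.15), while Ldb1 stood at 3.38 times (3.32 to 3.45), Tal1 3.45 times (3.38 to 3.52) and Gata1 7.62 times (7.52 to 7.72). In the 470, IgG stood at 3.595 times (3.45 to 3.745), close to Ldb1 at 3.74 times (3.604 to 3.87), while Tal1 stood at 4.51 times (4.35 to 4.67) and Gata1 9.74 times (9.52 to 9.97). Set against IgG, Ldb1 was 1.53 times higher (1.46 to 1.61) and Tal1 1.89 times (1.80 to 1.98) in the 470, against 4.75 (4.57 to 4.94) and 5.05 times (4.86 to 5.26) in the 1626. Both classes were made by IgG counts, so the IgG values, and the difference between the classes in these ratios to IgG, follow from the split. Flank levels per window were 0.354 RPM for Ldb1, 0.361 for Tal1 and 0.240 for IgG in the 470. In the 1626 they were 0.363, 0.379 and 0.233 RPM, so the ratios of both classes hold this difference too. The mean Ldb1 level itself was 1.32 RPM in the 470 and 1.23 RPM in the 1626, and that of Tal1 1.625 and 1.31 RPM.

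**Figure D2:**
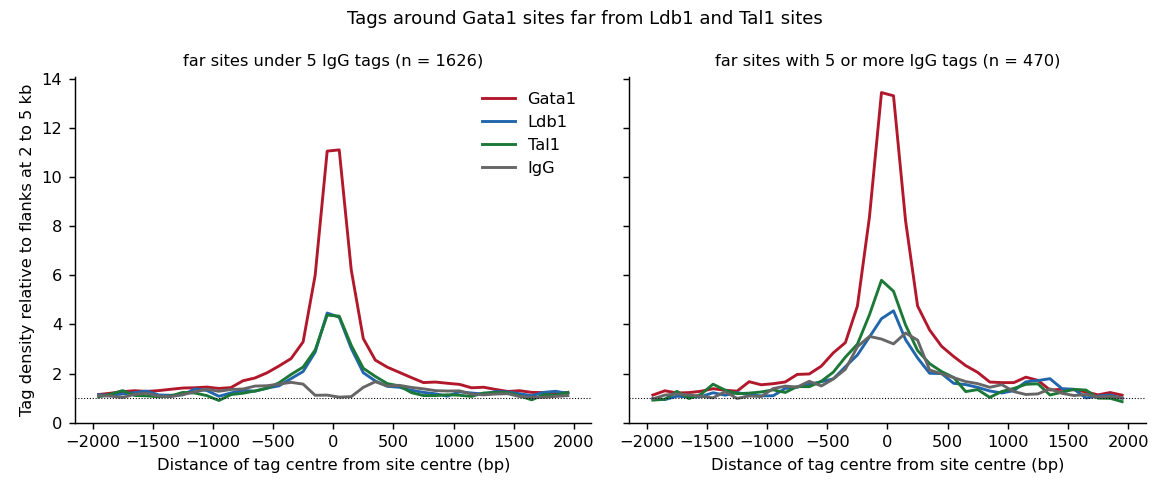
Tag density relative to flanks at 2 to 5 kb (vertical axis) by distance of the tag centre from the centre of the far site (horizontal axis, bp, in bins of 100 bp), for 1626 sites with under 5 IgG tags and 470 with 5 or more; lines are sums over sites. Ldb1 and Tal1 peak at the centre in both panels. The IgG line dips at the centre on the left and rises on the right, which the split by IgG tags itself produces.

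In the authors' deposited table the caller's fold over background had a median of 10.7 at the 1626 sites and at the 470. The 470 sites were wider, with a median of 120 bp (quartiles 60 and 220) against 60 bp (40 and 120) in the 1626. At 30 far sites IgG had 10 or more tags, and there Gata1 had a median of 31 tags. At 1 far site the IgG level was at or above that of Gata1, and at 215 (10.3%, 8.99 to 11.6) and 295 (14.1%, 12.6 to 15.6) it was at or above that of Ldb1 and of Tal1. Of the 3524 partnered sites, 55 (1.56%) and 35 (0.993%) had IgG at or above Ldb1 and Tal1, a direction that the rule favours. Of the 1626 sites with little IgG, 86 (5.29%) and 180 (11.1%) had that for Ldb1 and Tal1.

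Over the strength classes of the far sites the IgG level differed by more, in proportion, than the Ldb1 and Tal1 levels did. From 11 to 12 caller tags to over 30, the mean Gata1 level went from 2.22 to 8.02 RPM, which the grouping itself sets. Over the same range Ldb1 went from 1.16 to 1.56 RPM and Tal1 from 1.22 to 1.602 RPM, with 1.69 RPM at 21 to 30 caller tags. IgG went from 0.338 to 0.661 RPM, its rise over its own flanks from 1.45 times (1.39 to 1.52) to 2.71 times (2.38 to 3.09). At partnered sites the same steps took Ldb1 from 3.14 to 18.0 RPM, Tal1 from 3.86 to 24.5 RPM and IgG from 0.298 to 0.373 RPM. In the far sites with under 5 IgG tags, Ldb1 went from 1.14 to 1.39 RPM, Tal1 from 1.19 to 1.39 RPM and IgG from 0.240 to 0.300 RPM. There the split itself caps IgG, and it differed by a proportion similar to that of Ldb1 and Tal1. The Ldb1 and Tal1 rises of these sites at over 30 caller tags were 4.47 (3.87 to 5.15) and 4.08 (3.51 to 4.73), from 30 sites. The rule caps Ldb1 and Tal1 at levels that gave no call, so the flat course at far sites is in part a product of the choice.

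**Figure D3:**
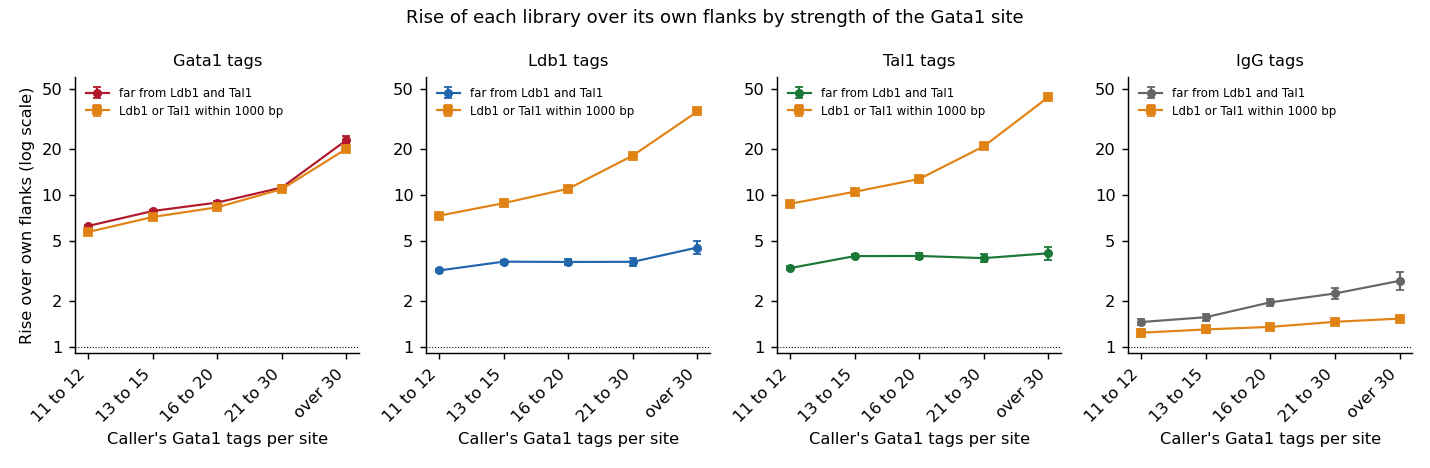
Rise of each library over its own flanks (vertical axis, log scale) by the caller's Gata1 tags per site (horizontal axis), for far and partnered sites; bars are exact 95% counting intervals. Gata1 follows nearly the same course in both groups, Ldb1 and Tal1 stay between 3.18 and 4.50 times at far sites while reaching 35.6 and 44.4 times at partnered sites, and IgG reaches 2.71 times at the strongest far sites.

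The share of far sites with 5 or more IgG tags went from 16.9% (14.4 to 19.5) at 11 to 12 caller tags and 18.1% (15.1 to 21.3) at 13 to 15 to 29.2% (24.7 to 34.1) at 16 to 20, 44.1% (36.3 to 52.1) at 21 to 30 and 48.3% (34.95 to 61.8) at over 30. At partnered sites it went from 12.04% (9.44 to 15.1) to 19.8% (17.1 to 22.7). From 16 caller tags upward the intervals of the 2 groups did not overlap. They cover counting error in a single IgG library only, and the difference between the groups was not tested. Of the 11 far sites with over 50 caller tags, 7 were of this kind, and of the 259 such partnered sites, 59. Among the strongest far sites, high control signal was thus common.

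**Figure D4:**
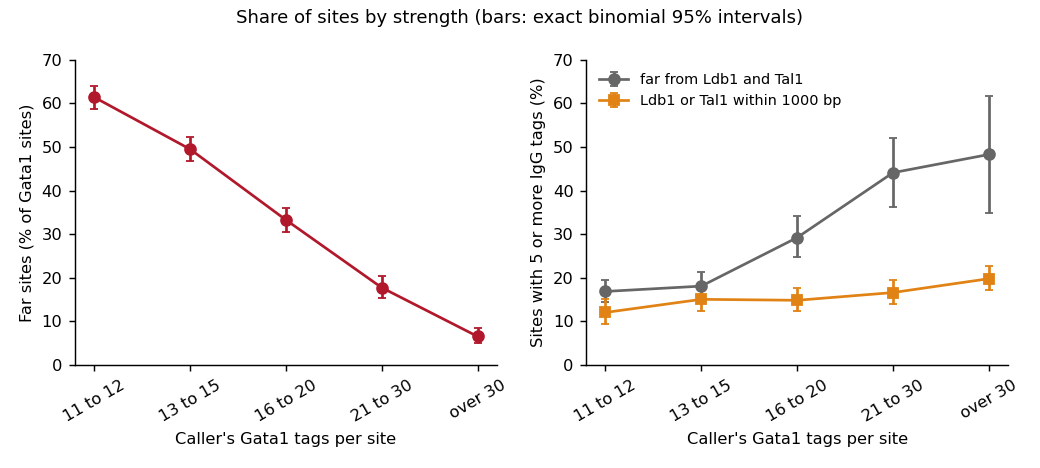
Left, far sites as a share of all Gata1 sites (%); right, the share of far and of partnered sites with 5 or more IgG tags (%), both by the caller's Gata1 tags per site, with exact binomial 95% intervals. Far sites thin out from 61.4% to 6.54% as sites get stronger, while their share with high IgG goes from 16.9% to 48.3%.

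Across the 2096 far sites, levels on a log2 scale (RPM plus 0.1) went together only weakly. Pearson's r and Spearman's rho were 0.156 and 0.158 for Gata1 with Ldb1, 0.212 and 0.234 for Gata1 with Tal1, and 0.264 and 0.229 for Ldb1 with Tal1. Gata1 with IgG had 0.309 and 0.319, more than with either partner, and 0.188 and 0.210 in the 1626 sites with little IgG. At partnered sites Gata1 had r of 0.694 with Ldb1, 0.697 with Tal1 and 0.139 with IgG. These coefficients describe sites that share the same 4 libraries and whose range was set by the rule, and small counts per site weaken them.

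The 10 far sites with the most caller tags among those with under 5 IgG tags are described next; Gata1 strength, low IgG and the lack of a partner call were thus set by the choice. The first was at chr12:4900011-4900271, with 68 caller tags. It had 101 Gata1, 11 Ldb1, 7 Tal1 and 1 IgG tags within 250 bp. Its nearest Ldb1 and Tal1 sites were both 1180 bp away, just past the limit. The second, at chr11:78352331-78352611 with 58 caller tags, had 91, 11, 17 and 4 tags, and its nearest Tal1 site was 161.3 kb away. Here Tal1 stood at 15.7 times (7.18 to 35.1) over flanks that held 13 tags, without a Tal1 call. Only 9 of its 17 Tal1 tags were distinct, where the caller's minimum was 8. The third, at chr14:85972951-85972991, had 80, 12, 10 and 4 tags and no partner site within 274.7 kb. The next pair lay at chr19:4878891-4879111 and chr19:43577971-43578031. The former had 74, 8, 8 and 3 tags and the latter 62, 14, 4 and 3 tags.

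The next 5 had 39 to 41 caller tags; the last was the first of 2 sites with 39. The site at chr11:59862711-59862771 had 53 Gata1, 4 Ldb1, 2 Tal1 and 2 IgG tags. Its Ldb1 and Tal1 counts had rises whose intervals included 1 (0.940 to 13.2 and 0.158 to 5.95). At chr11:68882791-68882831, 57 Gata1 tags stood beside 5 of Ldb1, 3 of Tal1 and 2 of IgG. There the partners stood within counting error of their own flanks, with rises of 0.938 (0.294 to 2.30) and 0.923 (0.183 to 2.90). The site at chr4:133028931-133028971 had 50 Gata1, 4 Ldb1, 1 Tal1 and 2 IgG tags, and Tal1 stood at 0.211 times its flanks, with an interval that included 1 (0.00524 to 1.22). The sites at chr7:101184991-101185051 and at chr9:120425891-120426031 had 59 and 60 Gata1 tags and 12 and 7 of Ldb1. Over all 10 sites Gata1 had 50 to 101 tags, Ldb1 4 to 14 (median 9.5), Tal1 1 to 17 (median 4.5) and IgG 1 to 4. Gata1 was above every other library at each, and IgG was low, both of which the choice of these sites fixed. Ldb1 was raised at 7 of the 10 and Tal1 at 3, where 73.4% and 76.7% of all Gata1 sites passed, and the median of 9.5 Ldb1 tags compares with 7 over all far sites. The summed rise was 22.7 times for Gata1 (19.97 to 25.9), 4.28 for Ldb1 (3.31 to 5.47), 2.70 for Tal1 (2.01 to 3.58) and 1.37 for IgG (0.879 to 2.07).

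**Figure D5:**
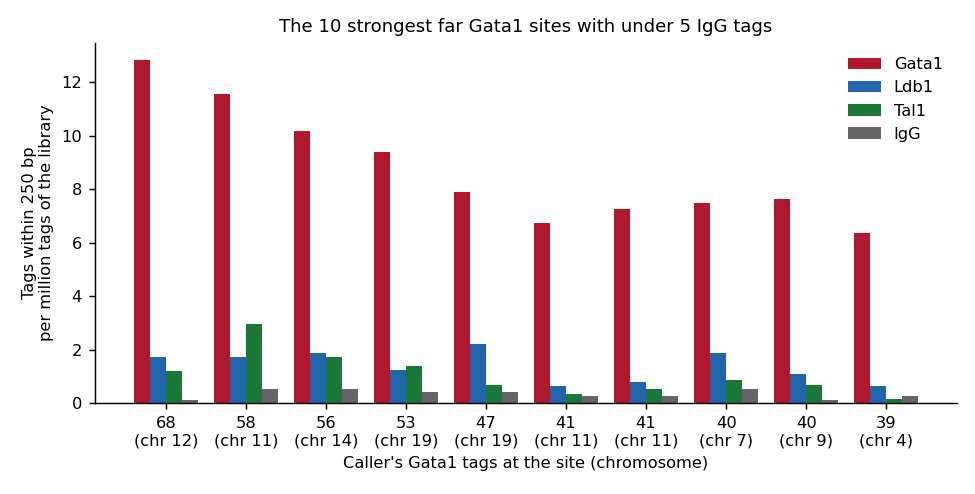
Tags within 250 bp per 1000000 tags of the library (vertical axis) for the 4 libraries at the 10 far sites with the most caller tags and under 5 IgG tags (horizontal axis, caller tags and chromosome); bars are single values from 1 library each. Gata1 ranges from 6.35 to 12.8 RPM, and the highest value of any other library is 2.95 RPM, of Tal1 at the second site.

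Far sites with the most partner tags lay close to the edge of the choice in part. The most Ldb1 tags among sites with little IgG were 25, at chr4:144300251-144300291 and at chr7:101184731-101184771. The first had Ldb1 and Tal1 sites 1040 bp away and 33 Gata1, 14 Tal1 and 4 IgG tags. The second was 270 bp from the chromosome 7 site above, so both share tags, and it had 55 Gata1, 4 Tal1 and 1 IgG tags. At its centre Ldb1 stood at 10 times (5.64 to 17.6) and Tal1 1.0 times (0.262 to 2.73). The next, with 23 Ldb1 tags and the first of 3 sites with that number, was at chr1:135891231-135891711, where partner sites lay 1740 bp away. The most Tal1 tags were 26, at chr1:51422791-51422971 and at chr16:35902951-35903091. The first had 36 Gata1, 8 Ldb1 and 2 IgG tags, and Tal1 stood at 78.0 times (27.1 to 308) over flanks with 4 tags. The second had 28 Gata1, 11 Ldb1 and 4 IgG tags. The next, at chr4:150777431-150777531, was the first of 3 with 25 Tal1 tags and had 19 Gata1 tags. By distinct tags these 3 sites had 15, 13 and 12 Tal1 tags, all over the caller's minimum of 8, without a Tal1 call within 24.1 kb.

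At the other end, 29 far sites (1.38%, 0.929 to 1.98) had at most 1 Ldb1 and 1 Tal1 tag, where 1 of the 3524 partnered sites did, and 6 had none of either. In the 27 of these with under 5 IgG tags, Gata1 had a median of 18 tags (range 13 to 46) and stood at 8.66 times (7.73 to 9.69), and IgG stood at 1.08 times its flanks (0.788 to 1.45). The strongest by caller tags was at chr11:80198911-80198951, with 46 Gata1, 1 Ldb1, no Tal1 and 3 IgG tags. At chr12:87834371-87834431 there were 32 Gata1 tags, none of Ldb1 or Tal1, and 3 of IgG. At chr5:146524971-146525331 there were 34 Gata1 tags and 1, 1 and 3 of the others. A count of 0 allows up to 3 tags, so a single site without a tag does not show absence. These 27 sites were chosen for few partner tags, and their low Ldb1 and Tal1 values follow from that.

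The site with the most IgG tags, duplicates kept, at chr7:63962211-63962251, had 13 Gata1, 13 Ldb1, 15 Tal1 and 14 IgG tags. Only 5 of its IgG tags were distinct. All 4 libraries were also high in its flanks, where they held 119 to 143 tags, and each interval of the rise included 1. Another 4 far sites had 13 IgG tags, of which the first 2 in chromosome order, at chr10:79668171-79668211 and at chr15:34026991-34027291, are given. The chromosome 10 site had 45 Gata1, 13 Ldb1 and 19 Tal1 tags, and the chromosome 15 site 26, 10 and 9. Their distinct IgG tags numbered 10 and 8, more than at the chromosome 7 site. At the chromosome 10 site IgG stood at 9.75 times (4.31 to 21.6), beside 6.75 times for Gata1 and 11.4 times for Tal1. At the chromosome 15 site it stood at 7.80 times (3.57 to 16.5), beside 15.6 times for Gata1. At both, the interval of the IgG rise lay above 1.

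The nearest Ldb1 or Tal1 site was a median of 36.8 kb away (quartiles 9.57 and 102 kb, largest 6917 kb). It was an Ldb1 site for 953 far sites and a Tal1 site for 1042, and 101 had both at the same distance. Within 2 kb lay a partner of 128 far sites (6.11%), at 2 to 5 kb of 200, at 5 to 20 kb of 447, at 20 to 100 kb of 785, and over 100 kb away of 536 (25.6%). The median strength hardly differed by distance. The median was 13 or 14 caller tags in all 5 classes. The mean Ldb1 level was 1.28 RPM within 2 kb and 1.19 RPM over 100 kb away, that of Tal1 1.36 and 1.42 RPM, and that of IgG 0.345 and 0.397 RPM. Ldb1 and Tal1 tags at far sites were thus not limited to the neighbourhood of their called sites. Over 100 kb away Ldb1 still stood at 4.92 times (4.75 to 5.11) and Tal1 6.10 times (5.88 to 6.33), and 60.2% (58.7 to 61.7) and 60.5% (59.0 to 61.9) of their tags pointed to the centre. At 2 to 5 kb the rises were only 1.21 (1.15 to 1.27) and 1.10 times (1.04 to 1.15). By definition a called Ldb1 or Tal1 site lay in the flanks there, and its part in these rises was not tested. The flank level was 1.05 RPM per window for Ldb1 and 1.245 RPM for Tal1, against 0.242 and 0.233 RPM over 100 kb away. The level in the window, 1.27 and 1.36 RPM, was close to that of the other classes.

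At the limit itself, the closest far sites were at chr10:127494091-127494131 (1010 bp from Ldb1), chr12:70700991-70701051 (1020 bp) and the chromosome 4 site above, the first of 3 at 1040 bp. The first 2 had 11 caller tags each, with 10 and 8 Ldb1 and 10 and 1 Tal1 tags. Just past it, 4 Gata1 sites had a partner at exactly 1000 bp, of which the first 3 lay at chr6:135132591-135132631, chr7:103685311-103685511 and chr11:3005331-3005431. These had 13, 17 and 14 caller tags, with 6, 14 and 10 Ldb1 and 5, 5 and 9 Tal1 tags.

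Far sites were spread over all 19 chromosomes. They made up 30.9% (23.85 to 38.6) of the Gata1 sites on chromosome 18 and 42.1% (36.0 to 48.35) on chromosome 3, the lowest and highest shares, whose intervals overlapped. Chromosome 11 had the most, 203 of 505. The rise of Ldb1 lay between 2.84 and 4.11 times over chromosomes, that of Tal1 between 2.91 and 4.71 and that of IgG between 1.43 and 2.34. Each antibody thus stood above IgG on every chromosome.

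Another far site lay within 20 kb of 433 far sites (20.7%, 18.9 to 22.5), and a partnered Gata1 site within 20 kb of 509 (24.3%, 22.5 to 26.2). Within 500 bp another far site lay at 66 (3.15%), and such neighbours share tags. None of these shares was made over all Gata1 sites, so they have no background share to be read against. The nearest other Gata1 site of either kind was a median of 35.85 kb from a far site and 14.75 kb from a partnered one. The densest stretches of 20 kb held 4 far sites each. They were at chr11:69796191-69811831 and chr11:87571651-87576071, and at chr13:23579851-23592851. Their 4 sites had 13 to 25, 12 to 22 and 11 to 18 caller tags. IgG was not low in them, with up to 9, 11 and 7 tags at a site, and stood at 2.0, 1.86 and 1.80 times over its flanks. Ldb1 stood at 3.34, 1.81 and 2.01 times, Tal1 at 3.52, 1.92 and 2.37 times and Gata1 at 5.41, 2.29 and 3.03 times. The flanks of one site can hold other sites of the same stretch, which lowers these rises. Summed over the 4 sites, Ldb1 had 32, 37 and 28 tags and IgG 22, 20 and 22. Their libraries held 6368803 and 7437674 tags.

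Sites of the other proteins called alone also held tags of the proteins not called there. At the 1314 Ldb1 sites with no Tal1 or Gata1 site within 1000 bp, Gata1 stood at 3.69 times (3.62 to 3.77), Tal1 4.23 times (4.14 to 4.33) and IgG 1.78 times (1.72 to 1.84). However, 1 of these sites alone held 793 of the 4101 IgG tags. Single sites also held up to 377 of the 12674 Gata1 tags and up to 530 of the 11375 Tal1 tags. At the 1215 Tal1 sites far from the others, Gata1 stood at 4.12 times (4.04 to 4.195), Ldb1 3.45 times (3.38 to 3.52) and IgG 1.93 times (1.87 to 1.99). The rises of Ldb1 and Tal1 at far Gata1 sites, 3.46 and 3.68 times, lay in the same range, and no difference between these lists was tested.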

How the data were processed

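The libraries were ChIP-seq of total mouse bone marrow. The deposited tag files list 1 aligned tag per line. The assembly is mm8 according to the submitters' processing notes, and which aligner was used is not given in the sources used here. Binding sites were called with SISSRs 1.4, per the file headers, for each antibody alone against the IgG library, with 1 tag per position, windows of 20 bp, p of 0.001 and an e-value of 10. The deposited lists give for each site a count of tags, a fold over background and a p-value, all by the authors' caller; the p-value was not used to select sites.

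Here tags, duplicates kept, were counted by their centre within 250 bp of a site centre and at 2 to 5 kb on both sides, using scipy 1.17.1 and pandas 2.3.3 under Python 3.11.15 (numpy 2.4.6). Ratios carry exact conditional and shares exact Clopper-Pearson 95% intervals, for counting error only; amplified tags are not independent molecules. Counting was tested on simulated data. No genome of mm8 was used, so planned motif, feature and gene list counts were not made. The sites and measures were chosen with earlier results of these data known. Named sites are the 10 with most caller tags and under 5 IgG tags, and the first 3 by IgG, by Ldb1, by Tal1, by caller tags among those with at most 1 tag of each partner, on each side of the limit, and by far sites in 20 kb, with ties taken by chromosome and start. Alternatives covered distance, window, flanks, duplicates, strength and IgG.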

Additional observations from a re-analysis of the deposited data

How the results depend on the processing

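The values for the far sites were recomputed in 67 combinations of a result and a setting. In 55 the value left its counting interval (for the number of sites, a factor of 1.5), in 12 it did not, and in none did a rise turn below 1; the cause was not tested. The number of far sites was 1768 with a distance of 5000 bp and 2405 with 200 bp. It was 2598 when no Ldb1 or Tal1 interval was allowed to overlap the Gata1 site. Rises are given in the order Gata1, Ldb1, Tal1, IgG. With a distance of 5000 bp they were 9.775, 4.596, 5.272 and 1.754, and with 200 bp 7.88, 3.564 and 3.922 for the 3 antibodies. Flanks of 5 to 10 kb gave 9.224, 3.869, 4.025 and 1.748. A window of 100 bp gave 11.64, 4.397, 4.639 and 1.594, and 500 bp gave 5.423, 2.614 and 2.823 for the 3 antibodies. Without sites of 5 or more IgG tags they were 7.618, 3.384, 3.451 and 1.109. With 1 tag per position, Ldb1, Tal1 and IgG had 3.636, 3.892 and 1.753. Above the median of 16 caller tags, 498 far sites were left, with 11.49, 3.77, 4.028 and 2.132.

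The shares with Ldb1 and Tal1 raised were 44.18% and 46.8% with 1 tag per position, 52.77% and 57.81% at 5000 bp, 54.02% and 61.24% above the median, 39.36% and 42.94% in 100 bp, 43.75% and 50.05% in 500 bp, 71.14% and 67.27% at 2-fold, and 17.94% and 27.05% at 5-fold. Ldb1 alone moved with the other flanks (51.24%), and Tal1 alone without high IgG (49.57%). The share with 5 or more IgG tags was 11.21% with 1 tag per position, 2.195% in 100 bp, 59.92% in 500 bp and 35.74% above the median. It was 48.57% for 3 or more tags and 1.431% for 10 or more. Another far site lay within 5 kb of 11.07% and within 50 kb of 34.69%, and within 20 kb of 10.64% above the median.

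No paired analysis was possible because there was only 1 library for every antibody. Counts of 0 to 10 per site limit what a single site shows.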

Other observations

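Chromosome X was outside the rule, but 28 of its 71 Gata1 sites also had no Ldb1 or Tal1 site within 1000 bp. They had a median of 19.5 Gata1 tags within 250 bp (range 11 to 37), 6 of Ldb1, 7.5 of Tal1 and 3 of IgG. Their rises over own flanks were 9.79 times for Gata1 (8.74 to 10.96), 4.11 times for Ldb1 (3.46 to 4.87), 5.81 times for Tal1 (4.95 to 6.81) and 1.85 times for IgG (1.45 to 2.33). No site of the 28 lacked Ldb1 or Tal1 tags altogether, and 2 lacked IgG tags.

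In the 58 far sites with over 30 caller tags, 58.9% of IgG tags within 250 bp pointed to the centre (95% interval 53.0 to 64.7), while over all far sites 43.9% did. The same 58 sites had 60% for Ldb1 (55.9 to 64.0) and 56.3% for Tal1 (52.0 to 60.6), so at the strongest far sites the 3 shares had overlapping intervals.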
